A study of Mus musculus with 18 samples.

Results

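The mitochondrial respiratory chain of mouse liver was followed at the mRNA level through its nuclear-encoded genes, after a systemic dose of the cytokine interleukin-1β (IL-1β). Every gene whose symbol begins with Ndufa, Ndufb, Ndufc, Ndufs, Ndufv, Uqcr, Cox4 to Cox8, Atp5 or Sdha to Sdhd was taken from the 3 gene count tables, which gave 92 of the 21018 genes listed in at least 1 table. Of these, 82 carry the name of a structural subunit: 36 of complex I, 4 of complex II, 8 of complex III, 18 of complex IV and 16 of complex V, among them Atp5l2, which the mm9 annotation lists as a pseudogene. The other 10 are 6 assembly factors (Ndufaf1 to Ndufaf4, Sdhaf1 and Sdhaf2), the pseudogene Atp5l-ps1, and 3 genes that share the symbol without encoding a subunit (Cox4nb, Atp5s and Atp5sl). The V4 and TruSeq tables listed all 92 and the Pico table listed 91, without Cox8b. An average of 10 counts or more per library was reached by 85 of them in TruSeq, 87 in V4 and 82 in Pico.

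The livers came from 6 male C57/B6J mice of 12 weeks, all perfused with cold buffer. Mice ILB.9579, ILB.9582 and ILB.9583 had received 20 µg/kg of IL-1β by intraperitoneal injection and mice UNT.9574, UNT.9575 and UNT.9576 saline, in each case 4 h before collection. RNA of each mouse was made into a library with each of 3 kits, giving 18 libraries. Pico libraries were made from 1.7 to 2.6 ng of total RNA, keep the strand and have ribosomal cDNA cut away. V4 libraries start from poly(A) RNA, were given 0.8 to 1.3 ng and do not keep the strand. TruSeq libraries also start from poly(A) RNA, were given 200 ng and do keep it. Reads were 150 bases long for Pico and V4 and 125 for TruSeq. Below, the values of single libraries are in the order of the mouse numbers above.

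The respiratory chain consists of large assemblies in the inner mitochondrial membrane. Complex I (NADH dehydrogenase) and complex II (succinate dehydrogenase) pass electrons to ubiquinone, complex III passes them on to cytochrome c and complex IV hands them to oxygen. Complexes I, III and IV pump protons while they do so, and complex V (ATP synthase) makes ATP from the returning protons. Most subunits are encoded in the nucleus, a few of complexes I, III, IV and V by the mitochondrial genome, and those of complex II by the nucleus alone. Core subunits carry the redox centers or the catalytic sites, supernumerary subunits surround the core, and assembly factors help to build a complex without remaining in it.

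TruSeq libraries held 12348864 to 12858237 gene counts each, V4 libraries 12013453 to 12352473 and Pico libraries 4024632 to 4134070. The V4 library of saline mouse UNT.9576 stood apart for these genes. It held the highest value of the 6 V4 libraries in 61 of the 77 structural subunits averaging 10 counts or more. Its level was a median of 0.39 on the log2 scale above the kit mean of each subunit. The TruSeq library of the same mouse was highest in 53 of 75 subunits, with a median of 0.24, and its Pico library in 30 of 74.

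The counts of the 92 genes were first summed in each library. They made up 0.837, 0.813 and 0.813% of all TruSeq counts in the IL-1β mice and 0.971, 0.981 and 1.06% in the saline mice. In Pico they made up 0.632, 0.653 and 0.602% against 0.763, 0.741 and 0.785%. The groups did not overlap in either kit. In V4 the shares were 1.99, 1.72 and 1.66% against 1.85, 1.93 and 2.45%, which overlapped.

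**Figure D1:**
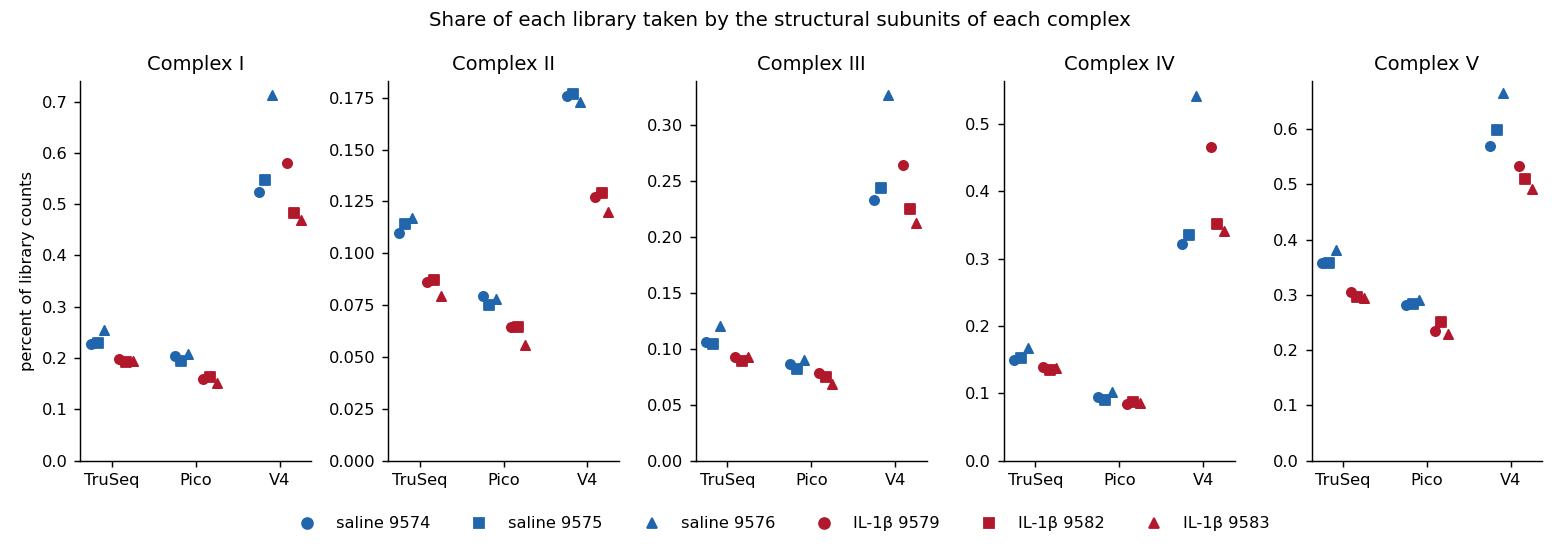
Share of all gene counts (percent, y axis) held by the structural subunits of each complex in each library, by kit and treatment; each point is 1 library. Each complex has its own y axis, colors are treatments and symbols are mice. In complexes II and V the IL-1β mice lie below the saline mice in each kit (complex II in TruSeq: 0.0792 to 0.0873% against 0.11 to 0.117%), whereas complexes I, III and IV overlap in V4.

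Complexes II and V were those whose shares were separated in every kit. The 4 genes of complex II held 0.0861, 0.0873 and 0.0792% of TruSeq counts after IL-1β and 0.11, 0.114 and 0.117% after saline. In V4 they held 0.127, 0.129 and 0.12% against 0.176, 0.177 and 0.173%. In Pico the shares were 0.0643, 0.0644 and 0.0556% against 0.0794, 0.0753 and 0.0781%. The complex V subunits held 0.306, 0.296 and 0.294% against 0.358, 0.358 and 0.382% in TruSeq. Complexes I, III and IV were likewise lower without overlap in TruSeq and Pico and overlapped in V4, where the libraries of IL-1β mouse ILB.9579 and saline mouse UNT.9576 had the highest shares of their groups.

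Gene by gene, most subunit mRNAs were modestly lower after IL-1β, and the number that passed the test depended strongly on the kit. A gene was called where the limma-voom test on library totals gave an adjusted p of at most 0.05, with the Benjamini-Hochberg adjustment over all genes of the kit. In TruSeq 44 of the 92 members fell and 1 rose, beside 21.8% of all 19424 genes that fell and 12.3% that rose. In Pico 17 of 91 fell and 0 rose, beside 10.8% and 6.78% of 18108 genes. The count of 0 was 1 by edgeR, 0 by DESeq2 and 1 at an unadjusted p under 0.05. In V4 1 of 92 fell and 1 rose, beside 7.41% and 3.6% of 18051 genes. Among genes averaging 10 counts or more, 30.2% fell in TruSeq, 16.0% in Pico and 10.2% in V4.

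The size of the change was small for most members. The median log2 fold change (IL-1β minus saline) over the members was -0.30 in TruSeq, -0.28 in Pico and -0.18 in V4. Over all genes tested it was -0.17, -0.12 and -0.22. Values below 0 were found for 82 members in TruSeq, 81 in Pico and 79 in V4, and 67 members, of which 61 are structural subunits, were below 0 in all 3 kits. These signs were taken with library totals, with which the all-gene medians were below 0 as well. The share of all genes below 0 is not given here. The kits were used on RNA of the same mice, so a shared sign is not independent evidence. The groups did not overlap, with the IL-1β mice lower, for 58 members in TruSeq, where 27.9% of all genes did so. The corresponding numbers were 41 members in Pico and 21 in V4, beside 18.6% of all genes in each.

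Much of this count rested on the scaling. Scaling by the trimmed mean of M-values (TMM) raised the log2 fold changes of expressed genes by a median of 0.16 in TruSeq, 0.13 in Pico and 0.17 in V4. With it, 11 members fell in TruSeq, 4 in Pico and 1 in V4, and the all-gene shares that fell were 16.1%, 8.16% and 4.84%, so that the members' shares lay below those of all genes. Those that still fell in TruSeq were Cox5a, Ndufa4l2, Ndufa6, Ndufaf1, Ndufaf4, Ndufb10, Ndufs1, Ndufv2, Ndufv3, Sdhaf1 and Sdhd, and in Pico Atp5k, Ndufaf4, Ndufb10 and Sdhaf1. The median over the members kept its sign, at -0.15 in TruSeq and Pico and -0.01 in V4, with all-gene medians of -0.01, 0.02 and -0.06. By complex, the TMM medians were -0.12, -0.24, -0.09, -0.09 and -0.14 for complexes I to V in TruSeq and -0.24, -0.25, -0.09, -0.09 and -0.08 in Pico. In V4 they were -0.01, -0.30, -0.07, 0.10 and -0.02, so that the direction of complex IV in V4 turned with the scaling.

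**Figure D2:**
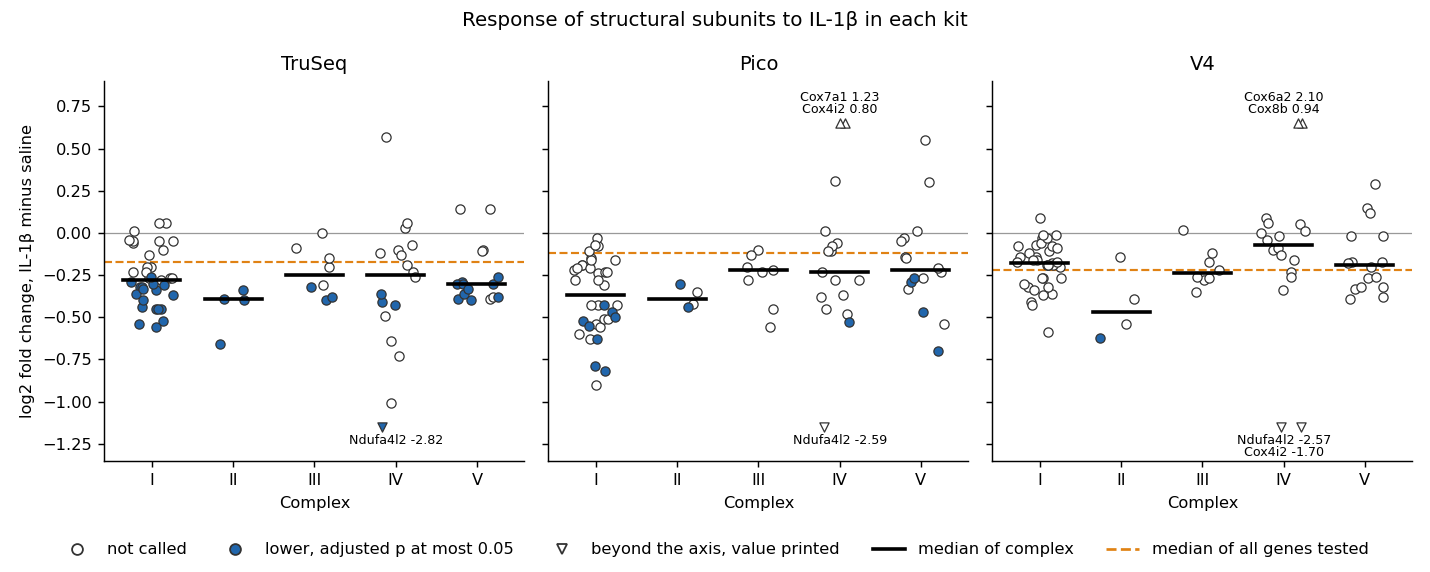
Log2 fold change (IL-1β minus saline, y axis) of every structural subunit by complex, 1 panel per kit. Circles are genes and triangles are genes beyond the axis with their value, both filled where they fell at an adjusted p of at most 0.05 (limma-voom). Black bars are the medians of each complex and the dashed line is the median of all genes tested. Most subunits lie below 0 in each kit, and filled symbols are most numerous in TruSeq (39 of 82) and fewest in V4 (1 of 82).

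Hepatocyte marker mRNAs moved in the same libraries. The summed level of 6 hepatocyte markers was 66400 to 72600 CPM (counts of a gene per 1000000 counts of the library) after IL-1β and 91600 to 109000 after saline in TruSeq, 47500 to 52800 against 58900 to 71400 in Pico, and 42400 to 46800 against 51500 to 64300 in V4. Of the 6 markers 3 fell in TruSeq, 5 in Pico and 3 in V4, and 1 rose in each. Markers of Kupffer cells, endothelial cells and stellate cells also had lower sums after IL-1β in each kit, such as 44.9 to 61.8 against 85.6 to 139 CPM for Kupffer cells in TruSeq, although 1 Kupffer cell marker rose in TruSeq and 1 endothelial marker in TruSeq and in Pico. Neutrophil markers went the other way, at 41.7 to 82.4 against 3.13 to 5.85 CPM in TruSeq. Cholangiocyte markers stood at 8.3 to 12.9 against 5.06 to 6.4 CPM in TruSeq, where 2 of 4 rose, and the sums overlapped in Pico, where 1 rose, and in V4. The part of these shifts in the members' values was not tested, and in whole liver RNA fewer cells of a type and less RNA per cell cannot be told apart.

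The assembly factors included the largest decreases among well-counted members. Of the 6 that carry the symbol, 4 fell in TruSeq (Ndufaf1, Ndufaf3, Ndufaf4 and Sdhaf1), 2 in Pico (Ndufaf4 and Sdhaf1) and 0 in V4, where 4 had an unadjusted p under 0.05 and edgeR and DESeq2 called 0. The shares that fell were 66.7%, 33.3% and 0.0%, beside 21.8%, 10.8% and 7.41% of all genes. The median log2 fold change of the 6 was -0.67 in TruSeq, -0.65 in Pico and -0.57 in V4. Sdhaf1, which helps to insert the iron-sulfur clusters of Sdhb, was at 4.91, 4.05 and 5.72 CPM after IL-1β and 12.6, 13.9 and 13.4 CPM after saline in TruSeq. Its log2 fold change there was -1.45 ± 0.16 (SE), with an adjusted p of 0.000155. In Pico Sdhaf1 was at 3.95, 5.71 and 2.48 against 13.0, 9.95 and 15.5 CPM, a log2 fold change of -1.69 ± 0.42 (adjusted p = 0.00963, limma-voom). The groups were far apart in both kits, although the Pico call was lost without IL-1β mouse ILB.9579 (adjusted p = 0.0608) or ILB.9583 (adjusted p = 0.0695). In V4 the values were 2.88, 4.56 and 4.31 against 5.08, 8.77 and 12.2 CPM, a log2 fold change of -1.09 ± 0.45 (adjusted p = 0.16). The Sdhaf1 gene (mm9 chr7:31106430-31107394, minus strand) shares 636 of its 965 exonic bases with E130208F15Rik on the other strand, so that its unstranded V4 counts could hold reads of both.

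Ndufaf4, a complex I assembly factor (mm9 chr4:24825230-24832148, plus strand), overlapped no other gene. It stood at 31.9, 29.3 and 24.7 CPM after IL-1β and 50.2, 61.3 and 53.4 after saline in TruSeq, a log2 fold change of -0.94 ± 0.13 (adjusted p = 0.000458, limma-voom). In Pico it stood at 35.8, 31.8 and 26.2 against 52.7, 67.0 and 59.0 CPM, a log2 fold change of -0.93 ± 0.19 (adjusted p = 0.00204). In V4 the values were 40.9, 28.4 and 28.6 against 46.2, 56.1 and 61.2 CPM, a log2 fold change of -0.75 ± 0.22 (adjusted p = 0.0505). The 3 kits thus gave separated groups for this gene, and its calls in TruSeq and Pico were kept under each alternative that was run. Ndufaf3, which works with Ndufaf4, had few counts. Its TruSeq level was 4.19, 4.70 and 3.22 CPM against 5.37, 7.66 and 7.70, a log2 fold change of -0.77 ± 0.22 (adjusted p = 0.0222). Sdhaf2, which helps to attach flavin to Sdha, had a log2 fold change of -0.14 ± 0.11 in TruSeq (adjusted p = 0.402).

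All 4 subunits of complex II fell in TruSeq, 2 fell in Pico (Sdha and Sdhb) and 1 in V4 (Sdhd). Of all genes, 21.8%, 10.8% and 7.41% fell in these kits. The median log2 fold change of the 4 subunits was -0.39 in TruSeq, -0.39 in Pico and -0.47 in V4. Sdhd, a membrane anchor that takes part in binding ubiquinone (mm9 chr9:50404443-50411954, minus strand), had the lowest log2 fold change of the 4 in TruSeq and V4. In TruSeq it was at 146, 155 and 134 CPM after IL-1β and 219, 225 and 242 after saline, a log2 fold change of -0.66 ± 0.09 (adjusted p = 0.000629, limma-voom). In V4 it was at 349, 361 and 323 against 506, 514 and 564 CPM, a log2 fold change of -0.62 ± 0.13 (adjusted p = 0.0111). The 2 poly(A) kits gave nearly the same fold at different levels, and the TruSeq call was kept under each alternative. The V4 call was lost without IL-1β mouse ILB.9583 (adjusted p = 0.0577) and with edgeR (adjusted p = 0.0863). In Pico Sdhd was at 55.6, 66.3 and 51.7 against 69.3, 67.2 and 98.9 CPM, a log2 fold change of -0.42 ± 0.18 that did not pass (adjusted p = 0.12).

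Sdha, the flavoprotein that oxidizes succinate, was at 455, 467 and 396 CPM against 570, 595 and 562 in TruSeq, a log2 fold change of -0.39 ± 0.09 (adjusted p = 0.00908, limma-voom). In Pico it was at 436, 424 and 365 against 525, 494 and 487 CPM, a log2 fold change of -0.30 ± 0.09 (adjusted p = 0.0355), and this call was lost without any 1 of the 6 mice. In V4 the saline value of mouse UNT.9576, at 385 CPM, lay within the IL-1β values of 352, 412 and 366, while the other two saline mice were at 671 and 635. Sdhb, the iron-sulfur subunit, was at 126, 122 and 129 against 154, 156 and 189 CPM in TruSeq, a log2 fold change of -0.40 ± 0.10 (adjusted p = 0.0155). This call was lost without IL-1β mouse ILB.9579 (adjusted p = 0.0506) or ILB.9582 (adjusted p = 0.0613). Sdhb also fell in Pico, from 121, 107 and 109 to 85.5, 84.2 and 77.2 CPM (log2 fold change -0.44 ± 0.13, adjusted p = 0.0281), and that call was kept without saline mouse UNT.9575 and lost without each of the other mice. Sdhc, the other membrane anchor, was at 134, 129 and 133 against 157, 167 and 176 CPM in TruSeq, a log2 fold change of -0.34 ± 0.09 (adjusted p = 0.0154). In V4 the groups of Sdhc overlapped.

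**Figure D3:**
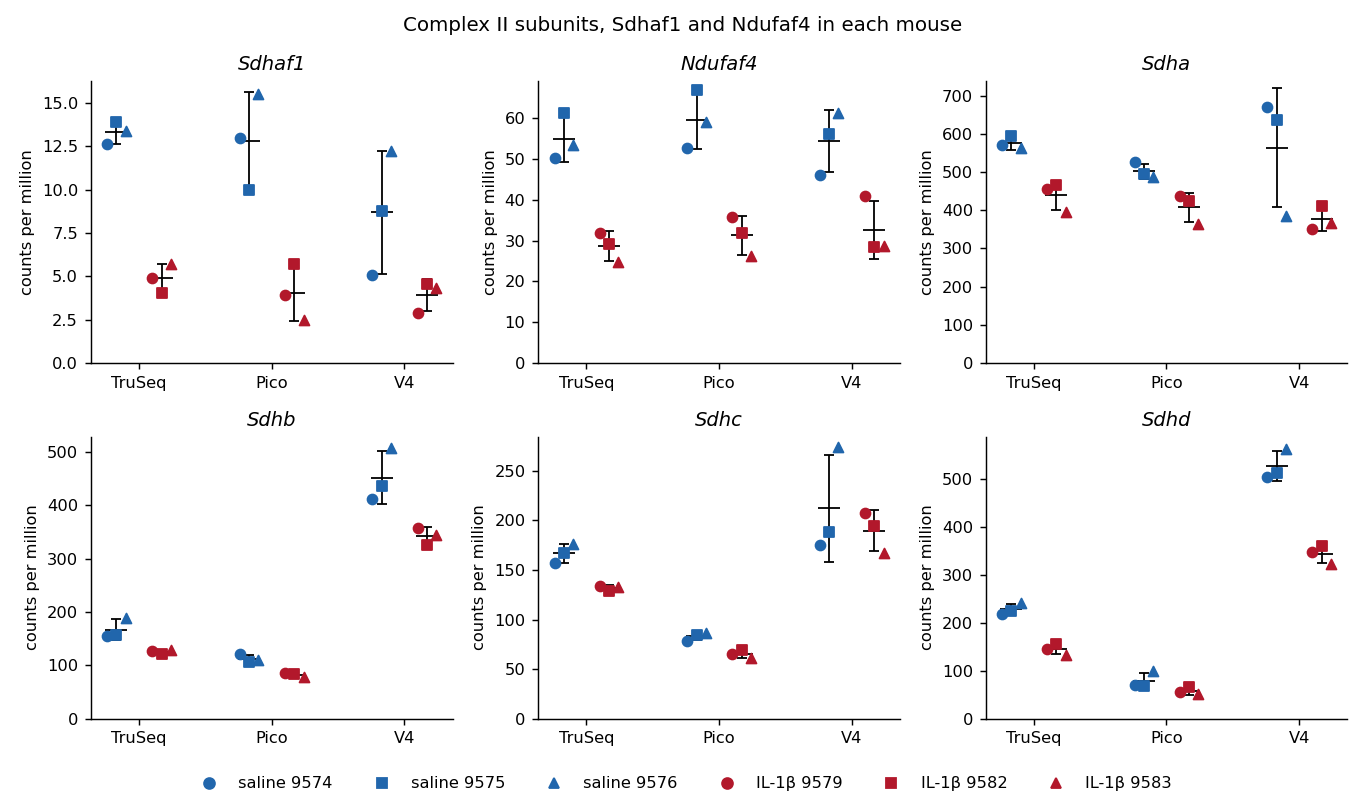
Level (CPM, y axis from 0) of Sdhaf1, Ndufaf4 and the 4 complex II subunits in each mouse, by kit; each symbol is 1 library, colors are treatments, and the bars are the group mean and SD (n = 3). Sdhd is separated between treatments in TruSeq (134 to 155 against 219 to 242 CPM) and V4 (323 to 361 against 506 to 564), and in V4 the Sdha value of saline mouse UNT.9576 lies among those of the IL-1β mice.

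Sdhd and Ndufaf4 are among the genes that kept their TruSeq call under each alternative, and their RefSeq promoters, chosen as examples after their values and motif matches were seen, are shown, each as the 130 bases before the annotated start in GRCm38.p6 and on the strand of the gene. Capitals mark matches to the NRF1 motif (GCGCA, any base, then GCGC) and, in Sdhd, to the ETS motif CCGGAAG on the opposite strand. NRF1 and the ETS factor GABP are known activators of respiratory chain genes.
Sdhd, chr9:50603850-50603979, minus strand: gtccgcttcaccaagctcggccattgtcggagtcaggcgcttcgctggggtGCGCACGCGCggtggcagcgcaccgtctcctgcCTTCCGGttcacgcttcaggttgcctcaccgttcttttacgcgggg
Ndufaf4, chr4:24897953-24898082, plus strand: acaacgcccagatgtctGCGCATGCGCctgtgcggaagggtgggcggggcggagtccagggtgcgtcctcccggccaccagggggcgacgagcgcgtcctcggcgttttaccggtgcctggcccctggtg
The NRF1 match began 79 bases before the start in Sdhd and 113 in Ndufaf4, and the ETS match 46 bases before it in Sdhd. Promoters of 250 bases before to 50 after the start were listed for 72 member symbols, 77 promoters in all, and were searched on both strands. The NRF1 motif was found in 19 of the 77 (24.7%) and in 4.6% of 32851 promoters of all genes. The ETS motif was found in 24.7% against 8.86%, either of the pair in 44.2% against 12.6%, and the ERR motif TNAAGGTCA in 3.9% against 1.28%. The median TruSeq log2 fold changes of members with and without a match were -0.34 and -0.30 for NRF1 and -0.32 and -0.30 for ETS. These counts describe letters in a window and no binding was measured.

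Complex I, the largest of the assemblies, had 18 of 36 structural subunits that fell in TruSeq, 8 of 36 in Pico and 0 of 36 in V4 (3 at an unadjusted p under 0.05), and 0 that rose. Neither edgeR nor DESeq2 called any in V4. Of all genes, 21.8% fell in TruSeq, 10.8% in Pico and 7.41% in V4. With TMM scaling 5 of the 36 fell in TruSeq, 1 in Pico and 0 in V4, beside 16.1%, 8.16% and 4.84% of all genes. The median log2 fold change of complex I with library totals was -0.28, -0.37 and -0.18. Among the 7 nuclear core subunits, which hold the flavin and the iron-sulfur clusters, 4 fell in TruSeq, among them Ndufv2 and Ndufs1, and 1 in Pico (Ndufs7). Among the 29 supernumerary subunits 14 fell in TruSeq and 7 in Pico. Ndufv2, an iron-sulfur subunit next to the NADH site, was at 67.0, 60.2 and 56.7 CPM after IL-1β and 87.2, 90.2 and 89.5 after saline in TruSeq (log2 fold change -0.54 ± 0.10, adjusted p = 0.00225, limma-voom). Its groups were also separated in V4, at 137, 140 and 129 against 193, 199 and 158 CPM, where it did not pass (adjusted p = 0.102). Ndufs1, the largest iron-sulfur subunit, was at 105, 104 and 92.3 against 140, 136 and 136 CPM in TruSeq (log2 fold change -0.45 ± 0.09, adjusted p = 0.00447). In V4 Ndufs1 was at 61.5 CPM in saline mouse UNT.9576, below every IL-1β mouse, and at 110 and 116 in the other saline mice.

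The supernumerary subunits that fell in both TruSeq and Pico were Ndufv3, Ndufa6, Ndufa10, Ndufa12, Ndufb5 and Ndufb10. Ndufb10 and Ndufa6 are described here after their values were seen. Ndufb10, a subunit of the membrane arm, was at 57.3, 58.8 and 57.7 against 74.8, 85.2 and 97.4 CPM in TruSeq (log2 fold change -0.56 ± 0.11, adjusted p = 0.00419, limma-voom). In Pico it was at 77.1, 81.0 and 82.0 against 149, 108 and 119 CPM (log2 fold change -0.63 ± 0.15, adjusted p = 0.006). In V4 the same gene overlapped, at 199, 165 and 153 against 164, 190 and 325 CPM. The IL-1β values of both stranded kits lay within a narrow range and the saline values were more spread. Ndufa6 was at 56.8, 56.9 and 57.5 against 74.1, 79.9 and 92.5 CPM in TruSeq (log2 fold change -0.52 ± 0.11, adjusted p = 0.00448).

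In complex III 3 of 8 subunits fell in TruSeq (Uqcrfs1, Uqcrc2 and Uqcrh) and 0 in Pico and V4, where 2 and 1 had an unadjusted p under 0.05 and edgeR and DESeq2 called 0. The shares that fell in TruSeq, Pico and V4 were 37.5%, 0.0% and 0.0%, beside 21.8%, 10.8% and 7.41% of all genes. The median log2 fold changes were -0.25, -0.22 and -0.24. Uqcrfs1, the Rieske iron-sulfur protein and the one core subunit that the nucleus encodes in this list, was at 163, 151 and 142 CPM after IL-1β and 189, 200 and 212 after saline in TruSeq (log2 fold change -0.40 ± 0.09, adjusted p = 0.00972, limma-voom). Its V4 groups were separated as well, at 405, 332 and 351 against 444, 445 and 494 CPM (adjusted p = 0.129), and its Pico groups overlapped. Uqcrh, the hinge protein near cytochrome c1, was at 128, 118 and 123 against 158, 160 and 162 CPM in TruSeq (log2 fold change -0.38 ± 0.09, adjusted p = 0.00758).

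Complex IV had the smallest share of calls of the complexes in TruSeq, with 4 of 18 subunits that fell (Ndufa4l2, Cox5a, Cox7a2l and Cox7b). Of these 18, only 12 averaged 10 counts or more in TruSeq, whereas all subunits of complexes I, II and III did. The share of complex IV therefore includes weakly counted isoforms. In Pico 1 of 17 fell (Cox6b1) and in V4 0 of 18, where 1 had an unadjusted p under 0.05 and edgeR and DESeq2 called 0. These shares of 22.2%, 5.88% and 0.0% were near or below the 21.8%, 10.8% and 7.41% of all genes that fell. The median log2 fold changes were -0.25, -0.23 and -0.07. No test of complex IV against the other complexes was made. Cox5a, which sits on the matrix side of the complex, was at 94.7 to 95.4 CPM in the 3 mice after IL-1β and 126, 124 and 134 after saline in TruSeq (log2 fold change -0.43 ± 0.09, adjusted p = 0.00435, limma-voom). In V4 it was at 348, 297 and 285 against 243, 260 and 453 CPM, with groups that overlapped and a log2 fold change of 0.01 (adjusted p = 0.983). Cox5a shares 267 of its 690 exonic bases with Gm17596 on the other strand, which the unstranded kit cannot separate. Cox4i1, the abundant form of subunit 4, had a log2 fold change of -0.07 ± 0.11 in TruSeq (adjusted p = 0.646).

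Several complex IV subunits have paralogs that muscle, lung or testis use, and liver used the ubiquitous form in each library. Per kilobase of exonic sequence (the union of a gene's exons), Cox4i1 made up at least 99.7% of the subunit 4 mRNA, Cox6a1 at least 98.9% of subunit 6a, Cox6b1 at least 99.2% of subunit 6b and Cox8a at least 99.8% of subunit 8. The muscle forms Cox6a2 and Cox8b had at most 5 and 3 counts in any library, and Cox4i2 at most 3. Markers of striated muscle and brown fat were at or near 0, up to 0.248 and 0.324 CPM. Subunit 7a was the mixed case. In TruSeq Cox7a2 made up 67.6 to 76.3% of it per kilobase, Cox7a2l, which takes part in joining complexes III and IV into supercomplexes, 23.0 to 31.1%, and the muscle form Cox7a1 0.684 to 1.33%. The Cox7a2l share was 24.9 ± 1.69% (SD, n = 3) after IL-1β and 28.7 ± 2.16% (n = 3) after saline. Cox7b2 and Cox8c were not analysed here.

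Ndufa4 is counted among complex I by its name and is a subunit of complex IV. It made up at least 98.3% of the pair with its hypoxia-inducible paralog Ndufa4l2 per kilobase. Ndufa4l2 fell in TruSeq on few counts. TruSeq gave 3, 0 and 4 counts against 13, 19 and 11, a log2 fold change of -2.82 ± 0.68 (adjusted p = 0.0104, limma-voom), and the call was lost without saline mouse UNT.9575 (adjusted p = 0.0519). V4 gave 4, 1 and 3 against 8, 20 and 28 counts (adjusted p = 0.0776), and Pico 0, 0 and 0 against 5, 0 and 10. The TruSeq and V4 counts did not overlap between the groups, and those of Pico did.

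In complex V 10 of 16 subunits fell in TruSeq, 4 in Pico (Atp5a1, Atp5b, Atp5d and Atp5k) and 0 in V4, where 4 had an unadjusted p under 0.05 and edgeR and DESeq2 called 0. The shares that fell in TruSeq, Pico and V4 were 62.5%, 25.0% and 0.0%, beside 21.8%, 10.8% and 7.41% of all genes. The median log2 fold changes were -0.30, -0.22 and -0.19. Of the 8 core genes, which encode the catalytic head, its stalk and the proton-driven ring, 4 fell in TruSeq and 3 in Pico. Atp5b, the catalytic β subunit, was at 1010, 974 and 943 CPM after IL-1β and 1200, 1190 and 1190 after saline in TruSeq (log2 fold change -0.29 ± 0.08, adjusted p = 0.0166, limma-voom). In Pico it was at 789, 832 and 762 against 966, 953 and 944 CPM (log2 fold change -0.27 ± 0.07, adjusted p = 0.019). In V4 it was at 1450, 1570 and 1470 against 1910, 2030 and 1730 CPM (log2 fold change -0.33 ± 0.11, adjusted p = 0.0779). The groups of Atp5b were thus separated in the 3 kits, with like folds. Atp5a1, the α subunit beside it, was at 811, 801 and 781 against 964, 935 and 1050 CPM in TruSeq (log2 fold change -0.30 ± 0.08, adjusted p = 0.0196). With TMM scaling neither passed in TruSeq (adjusted p = 0.232 for Atp5b and 0.237 for Atp5a1).

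Subunit c, of which several copies form the rotating ring, is encoded by 3 genes whose mature protein is known to be the same. The last 120 coding bases of each are shown, since the counts of these genes depend on telling them apart. Capitals in Atp5g2 and Atp5g3 mark bases that differ from Atp5g1.
Atp5g1: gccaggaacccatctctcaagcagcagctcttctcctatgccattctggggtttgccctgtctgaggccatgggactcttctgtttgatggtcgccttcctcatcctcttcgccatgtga
Atp5g2: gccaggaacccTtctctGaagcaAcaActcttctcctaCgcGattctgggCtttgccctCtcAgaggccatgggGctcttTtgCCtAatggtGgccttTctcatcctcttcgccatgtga
Atp5g3: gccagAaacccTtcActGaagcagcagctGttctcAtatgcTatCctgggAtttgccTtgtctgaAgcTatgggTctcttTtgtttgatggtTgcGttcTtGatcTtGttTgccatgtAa
Over the last 200 coding bases Atp5g2 differed from Atp5g1 at 33 and Atp5g3 at 41. Atp5g1 matches Gm10039 at 99.8% identity and Atp5g2 matches Gm10231 without a mismatch in the matched coding bases, and each copy had a higher mean count than the gene in each kit. With the reads of the copies left out, Atp5g3 per kilobase of exonic sequence made up 93.0 to 95.1% of subunit c mRNA in TruSeq, 85.9 to 92.4% in Pico and 90.9 to 93.6% in V4. With the reads of the annotated copies added to each gene, an alternative chosen after seeing the data, it made up 78.9 to 84.9%, 71.5 to 78.8% and 68.0 to 79.3%. The Atp5g3 share also depended on the length used. With the copies added it was 67.1 to 75.7%, 61.1 to 67.8% and 50.2 to 64.2% by reads alone. Per kilobase of the longest coding transcript it was 91.7 to 94.4%, 88.2 to 91.7% and 86.2 to 91.9%. Atp5g3 fell in TruSeq, from 307, 317 and 350 to 259, 256 and 274 CPM (log2 fold change -0.30 ± 0.09, adjusted p = 0.0259, limma-voom). Atp5g1, which is not among the genes that fell, was at 31.1, 28.8 and 31.2 against 24.6, 26.3 and 32.3 CPM, with overlap. The Atp5g1 share in TruSeq was 4.80 ± 0.179% (SD, n = 3) after IL-1β and 3.57 ± 0.259% (n = 3) after saline without the copies, and had means of 16.7% and 12.6% with them.

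The member that rose, Cox4nb, is no respiratory chain gene. It encodes a subunit of the endoplasmic reticulum membrane protein complex and lies next to Cox4i1. It was at 25.8, 33.2 and 37.2 CPM after IL-1β and 24.6, 22.0 and 24.5 after saline in TruSeq (log2 fold change 0.42 ± 0.15, adjusted p = 0.0496, limma-voom), and at 72.5, 89.4 and 79.6 against 37.5, 40.3 and 59.9 CPM in V4 (log2 fold change 0.83 ± 0.21, adjusted p = 0.029). The groups were separated in both kits and overlapped in Pico (adjusted p = 0.147). The TruSeq call was kept without IL-1β mouse ILB.9579 and lost without each other mouse, and the V4 call was kept without saline mouse UNT.9576 and lost without each other mouse. Atp5sl, the other gene named here for its symbol alone, fell in TruSeq (log2 fold change -0.42 ± 0.13, adjusted p = 0.0267). Atp5h, the structural subunit with the lowest log2 fold change of complex V in TruSeq, is described with its copies below.

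Calls were compared between kits. Of 91 members in both tables, 13 fell in both TruSeq and Pico: Ndufv3, Ndufa6, Ndufa10, Ndufa12, Ndufb5, Ndufb10, Ndufaf4, Sdha, Sdhb, Sdhaf1, Atp5a1, Atp5b and Atp5k. Of all 17207 genes in both, 10% (1728) fell in both. By limma-voom 0 members fell in all 3 kits, as by edgeR and DESeq2, whereas 5.35% of 16184 genes did. At an unadjusted p under 0.05, 10 members were lower in each kit: Atp5a1, Atp5b, Atp5c1, Ndufa4l2, Ndufa6, Ndufaf4, Sdha, Sdhaf1, Sdhb and Sdhd. The share of all genes lower in each kit at this unadjusted threshold is not given here, so that number has no background to be judged by. Without the V4 library of saline mouse UNT.9576, 8 members fell in V4 in place of 1: Atp5b, Atp5c1, Atp5f1, Ndufaf1, Ndufs1, Ndufv2, Sdha and Sdhd. The all-gene share that fell was then 8.51%, near that of the members. The median over the members was -0.05, beside an all-gene median of -0.22.

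Whether the response itself differed between kits was tested as an interaction of kit and treatment in the 12 libraries of a pair of kits. By limma-voom 0 of 91 members differed in the Pico and TruSeq pair, and 0 of 92 in the pair of V4 with TruSeq, at an adjusted p of at most 0.05, and 0.0% of all genes did in either pair. edgeR and DESeq2 also gave 0 members for each pair. At an unadjusted p under 0.05 the numbers were 2 and 0 members, beside 5.49% and 6.36% of all genes. Those 2 were Ndufa7 and Ndufa13, supernumerary subunits of complex I, both lower in Pico. Ndufa7 had a Pico minus TruSeq difference in log2 fold change of -0.64 (95% interval -1.09 to -0.18, adjusted p = 0.9), and Ndufa13 of -0.47 (-0.88 to -0.05, adjusted p = 0.9). For V4 minus TruSeq the smallest p values were those of Cox5a, with a difference of 0.44 (95% interval -0.09 to 0.97), and Ndufs4, with 0.26 (-0.07 to 0.60). Over all members the median half-width of the 95% interval was 0.41 for Pico and 0.53 for V4 against TruSeq. These intervals use the normal distribution, so they are narrower than those of the t distribution behind the p values. For Atp5b the interval was -0.16 to 0.21 for Pico minus TruSeq.

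The level assigned to these genes differed widely between kits. Kit, input, read length and sequencing run cannot be told apart here and the tables were normalized separately, so levels are described without a test. Within mice, the median log2 ratio of Pico to TruSeq was -0.40 ± 0.07 (SD over 6 mice) over the 82 members averaging 10 counts or more in each kit, of which 60 were below 0. The median of all such genes was 0.05. For V4 to TruSeq the median was 1.23 ± 0.16 over 85 members, of which 7 were below 0, while that of all genes was -0.43. Without the filter on counts the medians were -0.43 and 1.2. Respiratory chain mRNAs were thus read at a higher level in V4 and a lower level in Pico than in TruSeq.

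**Figure D4:**
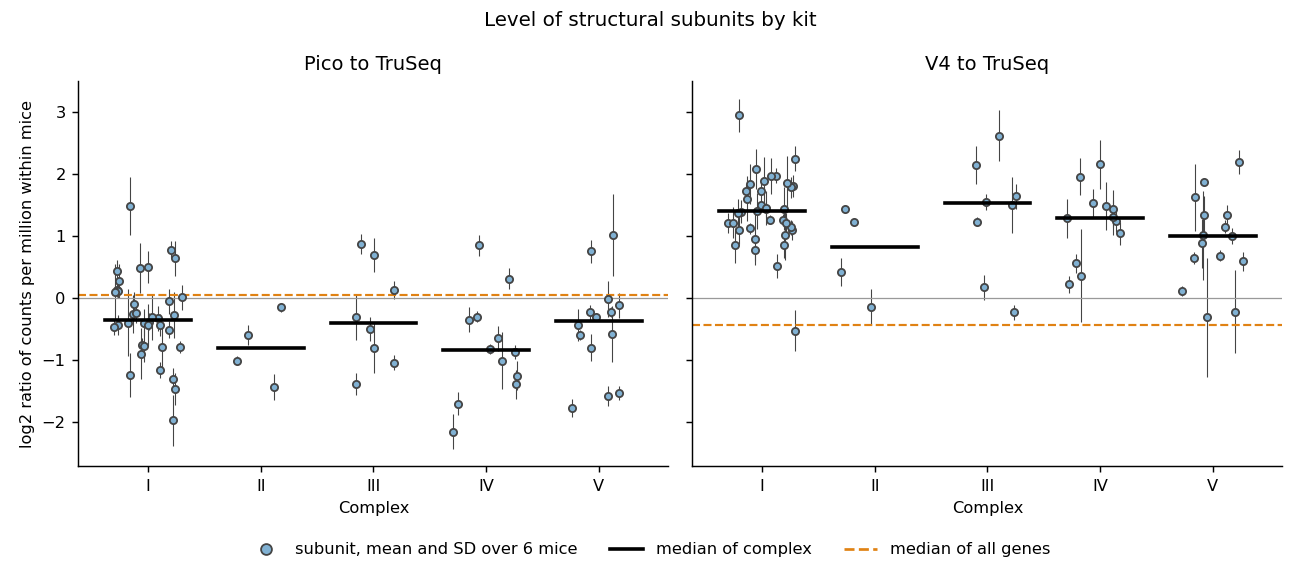
Log2 ratio of CPM within mice (y axis) for Pico to TruSeq and V4 to TruSeq, by complex; each point is 1 structural subunit (mean and SD over 6 mice), black bars are the medians of each complex and the dashed line is the median of all genes averaging 10 counts or more in each kit. For V4 to TruSeq 5 of the 75 subunits lie below 0, and for Pico to TruSeq 56 of the 74.

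By complex, the structural medians for V4 to TruSeq were 1.39 in complex I, 0.82 in complex II, 1.52 in complex III, 1.29 in complex IV and 1.0 in complex V. Those for Pico to TruSeq were -0.36, -0.80, -0.40, -0.85 and -0.37. Other gene lists are given beside them. Enzymes of the tricarboxylic acid cycle had a median V4 to TruSeq log2 ratio of 0.18, assembly factors outside the symbol rule 0.44, electron and mitochondrial carriers 0.79, close to complex II, cytosolic ribosomal proteins -0.93 and the mitochondrially encoded mRNAs -2.23. The nuclear and mitochondrial subunits of the same complexes therefore lay on opposite sides of TruSeq in this kit. For Pico to TruSeq these lists stood at -0.30, -0.26, -0.35, -0.06 and 0.11.

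Single genes went further. Ndufs7, a core subunit that carries an iron-sulfur cluster, had the highest V4 to TruSeq ratio of 2.94 ± 0.27 (SD over 6 mice), with mean levels of 33.9 CPM in TruSeq, 47.7 in Pico and 260 in V4. Uqcrq, a small complex III subunit, followed with 2.61 ± 0.41 and means of 102, 163 and 637 CPM, and Ndufa11 with 2.24 ± 0.20. The lowest V4 to TruSeq ratios were those of Ndufs1 at -0.53 ± 0.33, Sdhaf1 at -0.52 ± 0.52 and the pseudogene Atp5l-ps1 at -0.39 ± 1.38. The ratio of Atp5l-ps1 varied over mice by more than its distance from 0. In Pico the lowest ratios to TruSeq were Ndufa4 at -2.15 ± 0.28, Ndufb3 at -1.97 ± 0.41 and Atp5e, a subunit of the central stalk of complex V, at -1.77 ± 0.14. Ndufa4 had mean levels of 254 CPM in TruSeq, 57.4 in Pico and 524 in V4. The highest in Pico were Atp5l-ps1 at 1.67 ± 0.42, Ndufb4 at 1.48 ± 0.47 and Atp5l at 1.02 ± 0.66, all with near-identical copies.

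Many members have short transcripts. Structural subunits with transcripts under 800 bases had a median Pico to TruSeq log2 ratio of -0.65, and longer ones -0.31. For V4 to TruSeq the medians were 1.47 and 1.12. Across genes, which are not independent replicates, transcript length and the ratio had a Pearson r of 0.129 and a Spearman rho of 0.181 in 74 subunits for Pico, and of -0.266 and -0.304 in 75 subunits for V4. Per kilobase of exonic sequence, and without the tissue and paralogous isoforms, complex IV (11 genes) had the highest median level in each kit. The medians in TruSeq were 39.2 CPM per kilobase in complex I, 98.1 in II, 104 in III, 162 in IV and 47.6 in V. In V4 they were 111, 149, 316, 456 and 105, and in Pico 30.3, 48.2, 75.6, 81.6 and 43.9. Per kilobase of the longest coding transcript, an alternative chosen after seeing the data, they were 56.0, 137, 120, 202 and 124 in TruSeq, 164, 250, 315, 602 and 196 in V4, and 48.7, 69.1, 99.1, 117 and 104 in Pico. Complex IV was again highest in each kit and the order of the others moved. Ranges within a complex were wide, such as 2.26 for Ndufb4 to 230 for Ndufb9 in complex I in TruSeq per kilobase of exonic sequence.

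Near-identical copies limit how some members can be read. Of 81 structural subunits with a coding sequence, 22 had at least 1 other place in mm9 that matched it at 95% identity or more over at least 50% of its length, and for 21 of them an annotated gene lies there. Atp5l had the most, with 8 places and 6 annotated genes. In TruSeq a copy held more counts than the member itself for 8 members (Atp5g1, Atp5g2, Atp5h, Atp5l, Atp5l-ps1, Cox7c, Ndufab1 and Ndufs3), and in Pico and V4 for 7 each. Atp5l, subunit g of ATP synthase, had a mean of 37.5 TruSeq counts while its copy Gm10221, which had no mismatch in the matched coding bases, had 766.7. Atp5g1 had 365.2 and its copy Gm10039 1115. Atp5h, which is subunit d of the stalk, had 445.3 and its copy Gm10250 1120. Both fell after IL-1β in TruSeq, with a log2 fold change of -0.40 ± 0.11 for Atp5h (adjusted p = 0.0182, limma-voom) and -0.41 ± 0.10 for Gm10250 (adjusted p = 0.0112). The split of reads between a member and its copy is uncertain in these tables. Over the members without a copy, 35 fell in TruSeq, 15 in Pico and 1 in V4, and their median log2 fold changes were -0.30, -0.28 and -0.17.

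**Figure D5:**
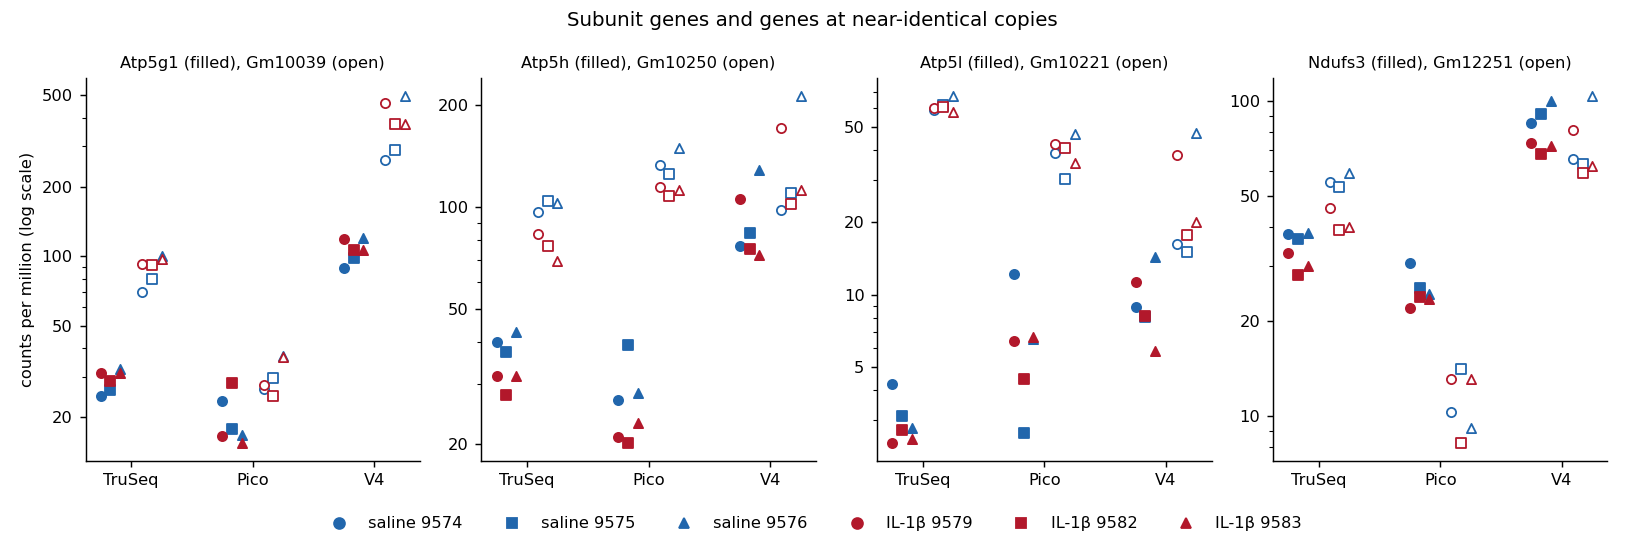
Level (CPM, log axis) of 4 subunit genes (filled) and of a near-identical copy of each (open) in every library, by kit; colors are treatments and symbols are mice. In TruSeq the copy lies above the subunit gene in each panel, as for Atp5l (a mean of 37.5 counts against 766.7 for Gm10221), and in Pico and V4 Ndufs3 lies above its copy in most libraries.

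Other mitochondrial gene lists were set beside the members. Of all genes, 21.8% fell and 12.3% rose in TruSeq, 10.8% and 6.78% in Pico, and 7.41% and 3.6% in V4. Of the assembly factors outside the symbol rule, 11 of 24 fell and 2 rose in TruSeq, 0 of 24 changed in Pico (5 lower at an unadjusted p under 0.05, 0 by DESeq2 and 1 higher by edgeR) and 3 of 23 fell in V4. Of 20 electron and mitochondrial carriers, 8 fell in TruSeq, 5 in Pico and 3 in V4. Coq9, which is needed to make ubiquinone, fell in each kit, from 91.5, 87.0 and 89.8 to 57.3, 51.0 and 50.9 CPM in TruSeq (log2 fold change -0.75 ± 0.09, adjusted p = 0.000299, limma-voom). Its log2 fold changes were -0.61 in Pico and -0.77 in V4. Of 13 tricarboxylic acid cycle genes 7 fell and 1 rose in TruSeq, 3 and 1 in Pico, and 1 and 1 in V4. Fh1, fumarase, which takes the product of succinate dehydrogenase, rose in each kit, from 234, 234 and 262 to 366, 376 and 378 CPM in TruSeq (log2 fold change 0.62 ± 0.09, adjusted p = 0.000554).

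Among 13 regulators of mitochondrial genes, 3 fell and 4 rose in TruSeq, 3 fell and 1 rose in Pico, and 4 fell and 0 rose in V4. The shares that fell were 23.1%, 23.1% and 30.8%, beside 21.8%, 10.8% and 7.41% of all genes. Ppargc1b, a coactivator of respiratory chain genes, fell in each kit. In TruSeq it was at 0.402, 0.81 and 1.05 CPM after IL-1β and 4.82, 4.61 and 3.50 after saline (log2 fold change -2.54 ± 0.35, adjusted p = 0.000543, limma-voom), and in Pico the log2 fold change was -2.96 ± 0.57 (adjusted p = 0.00152). In V4 it was listed at 0, 0 and 1.58 CPM against 6.83, 7.94 and 7.61 (adjusted p = 0.00487). Esrra, the nuclear receptor ERRα that it coactivates, was named after its values were seen and fell in each kit as well, from 18.3, 22.6 and 28.5 to 7.08, 6.72 and 9.35 CPM in TruSeq (log2 fold change -1.57 ± 0.20, adjusted p = 0.000338). The regulators as a list moved both ways, with a median log2 fold change of 0.07 and a range of -2.54 to 1.63 in TruSeq. As 0 rose in V4, the naming rule names none of those that rose. Ppargc1b and Esrra, the regulators given with values here, both fell. They do not stand for the list, of which 4 rose and 3 fell in TruSeq. A part of the regulators in the members' values was not tested. Of the 13 mitochondrially encoded mRNAs 5 fell in TruSeq (38.5%), 2 in Pico (15.4%) and 0 in V4, with median log2 fold changes of -0.25, -0.13 and -0.07. With TMM scaling these medians were -0.10, 0.01 and 0.10 and 0 fell, so the direction turned in Pico and V4. Cytosolic ribosomal protein genes, whose mRNAs are also short and abundant, did not go the same way: 0 of 78 fell and 7 rose in TruSeq, 0 of 77 and 1 in Pico, and 0 of 78 and 0 in V4, with medians of 0.08, 0.06 and 0.17. Rises were no more frequent among them than among all genes, of which 12.3%, 6.78% and 3.6% rose. At an unadjusted p under 0.05, 4 of the ribosomal protein genes were lower in TruSeq and 0 in Pico and V4, and edgeR and DESeq2 called 0 lower in each kit.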

How the data were processed

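Liver RNA of 6 mice was sequenced with 3 kits. The authors aligned reads to mm9 with GSNAP v2018-07-04, removed ribosomal reads and resampled the remainder to equal depth within a kit with PORT v0.8.5b-beta. They deposited whole-number gene counts, of sense-strand reads in the Pico and TruSeq tables and of either strand in V4's. Totals were 4024632 to 12858237 counts per library, and their counting error limits weakly counted genes. The Pico preparation was repeated in the study, and which run these counts came from is not given in the sources used here.

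Counts were divided by library totals (CPM, per 1000000 counts). Each kit was tested with limma-voom (limma 3.58.1, R 4.3.3) over genes with a count in at least 1 library, without TMM factors, with the Benjamini-Hochberg adjustment over all genes and a threshold of 0.05. Differences in response were tested as interactions over 12 libraries. The fits were tested on simulated data in which far fewer genes changed than were called in the real data. Small changes were seldom called there in any kit. V4 recovered the fewest true changes and had the largest share of false calls. The adjustment of p depends on how many genes change, so these rates do not give the power or the false calls of the real fits. Level ratios between kits were taken within mice with 0.5 added counts for genes averaging 10 counts or more in each kit. Near-identical copies were found with BLAST 2.17.0, and promoters were RefSeq's for GRCm38.p6. Alternatives were edgeR 4.0.16, DESeq2 1.42.0, TMM factors, another filter, equal depth, 1 fit of all libraries, other thresholds and leaving out each mouse.

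Samples of 1 mouse were paired across kits, since aliquots of the same RNA entered each. Deviations from the group mean correlated between same-mouse libraries at r = 0.176 to 0.406 for Pico and TruSeq (9569 genes) and 0.154 to 0.374 for V4 and TruSeq (10266 genes). Treatments compared within a kit shared no mouse.

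The genes and lists were chosen with earlier results of these data known. Named were, for each complex, the 2 members called in TruSeq with the largest change in a direction where fewer than 2 were called in all kits, the complex II subunits, the core subunits as groups, isoform pairs, the 3 highest and lowest level ratios, the smallest interaction p values and, in other lists, the gene called in all kits with the largest change. Others are named as members of counts or after their values were seen. Protein sequences were not used here, and some genes that this rule names are not reported here.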

Additional observations from a re-analysis of the deposited data

How the results depend on the processing

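The number of members that fell depended on scaling, test and threshold. In TruSeq, where 44 fell, the count was 11 with TMM factors, 12 with edgeR, 10 with DESeq2, 23 in 1 fit of all 18 libraries and 16 at an adjusted p of at most 0.01. In Pico, where 17 fell, it was 4, 6, 5, 4 and 3. In V4, where 1 fell, it was 0 with edgeR, 2 with the filter of at least 10 counts in 3 libraries, 19 in 1 fit of all 18 libraries, 3 at equal depth, 6 at an adjusted p of at most 0.1 and 0 at 0.01. The median log2 fold change was -0.15 with TMM factors, edgeR and DESeq2 in TruSeq, and -0.15, -0.15 and -0.16 in Pico. The count that rose was 1 in Pico with edgeR. In TruSeq it was 0 in 1 fit of all 18 libraries, and in both TruSeq and V4 it was 0 at equal depth, at an adjusted p of at most 0.01 and among structural subunits alone. The median log2 level ratio of Pico to TruSeq was -0.55 with TMM factors and -0.25 with 20 added counts, and that of V4 to TruSeq 1.54 with TMM factors. Without 1 mouse at a time, 25 to 36 members fell in TruSeq (29 without saline mouse UNT.9575 and 25 without IL-1β mouse ILB.9582), 3 to 11 in Pico and 0 to 8 in V4, and 0 to 1, 0 and 0 to 1 rose. In Pico the counts were 7, 9 and 11 without saline mice UNT.9574, UNT.9575 and UNT.9576 and 4, 7 and 3 without IL-1β mice ILB.9579, ILB.9582 and ILB.9583. In V4 they were 8 without saline mouse UNT.9576, 2 without IL-1β mouse ILB.9579, 0 without ILB.9583 and 1 without each of the others. Of all genes, 16.9 to 18.7% then fell in TruSeq, 5.74 to 9.13% in Pico and 3.2 to 8.51% in V4. The medians over the members then lay between -0.33 and -0.28 in TruSeq, -0.31 and -0.26 in Pico and -0.29 and -0.05 in V4, the level ratios between -0.40 and -0.38 and between 1.21 and 1.27, and 0 members differed in response. The cause of these shifts was not tested. With the mouse as a replicate block, 0 members differed in response in either pair of kits, as without it, and the smallest adjusted p was 0.642 for Pico and 0.759 for V4 against TruSeq. Members without a near-identical copy, an alternative chosen after seeing the data, kept each count within 1.5 times that of all members. Of 20 named calls, 10 were kept with TMM factors, edgeR or DESeq2, 20 with the count filter, 16 at equal depth and 11 in 1 fit of all libraries. Depth limits Ndufa4l2 and the muscle isoforms, which had at most 28 counts in any library.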
